A study of Homo sapiens with 6 samples.

Results

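Metallothioneins are small cytosolic proteins rich in cysteine that bind zinc and copper and, after exposure, cadmium. Their genes lie side by side on human chromosome 16. Most are switched on by zinc through MTF1, a zinc-sensing transcription factor that binds short metal response elements in their promoters, and several also respond to glucocorticoids and oxidative stress. In the kidney, metallothionein is best known for holding zinc, copper and cadmium in proximal tubule cells. The genes described here are MT1E, MT1F, MT1G, MT1H, MT1M, MT1X and MT2A. They were selected by gene symbol, and all 7 were found among the 19669 named genes of the deposited table. Copies of the family are near-identical in their coding sequences, so the value of any one of them may hold reads of another.

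Messenger RNA (RNA-seq) and ribosome-protected fragments (Ribo-seq, which sequences the mRNA pieces that ribosomes shield from nuclease) were measured in 786-O, an established human line of clear cell kidney cancer that has no functional VHL. There were 3 labels, MT, WT and EV, with 1 library per label and assay, 6 in all. MT is named in the series title as PHYHD1 lacking the segment 107-130 and in the sample labels as overexpressing PHYHD1. WT is PHYHD1-WT in the title and in the column names, whereas the design text describes it as untreated. EV is the empty vector. MT here is always the label, and metallothionein genes carry a suffix. PHYHD1, a dioxygenase of the family that uses iron and 2-oxoglutarate, stood at 109.5 FPKM in MT and 118 FPKM in WT, against 0.092 FPKM in EV. Its Ribo-seq value was 905 TPM in MT and 222 TPM in WT, against a listed 0 in EV. The WT library therefore held PHYHD1 far above EV, which goes against an untreated group. The design text names 3 dishes per condition, and whether they were pooled, and whether the cells are 1 clone, is not given.

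With 1 library per label no difference below has a replicate check or a p-value, and each comparison is between libraries. RNA-seq values were read as FPKM and Ribo-seq values are TPM, both scaled to length, and read depth is unknown. A log2 difference is always log2 of the value plus 1 in the first-named library minus the same in the other, so it understates changes of low genes. A gene is called when that difference is at least 1 in size, upward (higher) or downward (lower), which is a rule of size. Between 10400 and 10897 genes reached 1 unit in each library. All 10 renal and renal carcinoma markers examined reached 1 unit, among them PAX8 (94.0 FPKM in MT, 75.9 in WT and 88.5 in EV) and VIM. The 4 endothelial markers were listed at 0 in all 6 libraries, and the leukocyte marker PTPRC did not exceed 0.071 FPKM. CD68, which is not limited to leukocytes, stood at 6.19 FPKM in MT, 9.02 in WT and 5.47 in EV.

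The promoters of the family are shown because they carry the sequence through which metals act on these genes. RefSeq windows were at hand for 3 of the 7 genes, MT2A and MT1X, which these cells express, and MT1H, which was listed at 0 throughout. MT1E, MT1F, MT1G and MT1M had no entry. The 250 bases before each start site are given in build GRCh38.p14, all on the plus strand: chr16:56608334-56608583 for MT2A, chr16:56682220-56682469 for MT1X and chr16:56669564-56669813 for MT1H. Capitals mark matches to TGCGCNC or TGCACNC, the 2 forms of the core of the metal response element, searched on both strands.
MT2A: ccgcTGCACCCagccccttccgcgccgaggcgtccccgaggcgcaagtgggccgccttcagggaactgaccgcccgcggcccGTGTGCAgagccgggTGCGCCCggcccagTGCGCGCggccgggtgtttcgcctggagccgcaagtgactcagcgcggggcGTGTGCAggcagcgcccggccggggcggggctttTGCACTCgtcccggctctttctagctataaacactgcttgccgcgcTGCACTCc
MT1X: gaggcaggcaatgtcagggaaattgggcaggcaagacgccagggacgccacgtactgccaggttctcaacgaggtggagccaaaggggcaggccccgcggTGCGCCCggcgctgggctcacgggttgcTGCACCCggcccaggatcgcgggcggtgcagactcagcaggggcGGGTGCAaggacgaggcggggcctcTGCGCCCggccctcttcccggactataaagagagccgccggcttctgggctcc
MT1H: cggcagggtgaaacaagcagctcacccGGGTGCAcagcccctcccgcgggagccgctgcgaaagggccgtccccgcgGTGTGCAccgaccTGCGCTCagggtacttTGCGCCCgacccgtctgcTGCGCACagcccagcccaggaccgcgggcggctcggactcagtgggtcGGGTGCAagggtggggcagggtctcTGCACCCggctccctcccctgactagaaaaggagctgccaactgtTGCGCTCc

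The MT2A window held 7 matches, that of MT1X 4 and that of MT1H 8. Among 35116 RefSeq windows of the same length, 24.8% held at least 1 match and 1.58% held 3 or more. Each of the 3 genes has a match about 50 bases before its start (bases 54 to 48 in MT2A, 53 to 47 in MT1X and in MT1H). MT1H, listed at 0, thus carried as many of these letters as the expressed genes did, and a match is a description of sequence only.

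Of the 7 genes, 4 were at 1 unit or more in these cells. MT2A, MT1E, MT1X and MT1F reached 1 unit in every library of both assays. MT1H and MT1M, which encode further MT1 isoforms, were listed at 0 in all 6 libraries. MT1G was listed at 0 in RNA-seq under every label and stood at 0.563 TPM in MT and 0.777 TPM in WT, against 0 in EV, in Ribo-seq. Values of this size rest on few reads, and whether they hold reads of an expressed copy was not tested. MT1A and MT1B were at or near 0 as well, with 0.394 TPM for MT1A in EV Ribo-seq as the highest value. Of 11 further family genes and pseudogenes listed, 5 were in the table and none reached 1 unit. MT3, known from the brain, and MT4, known from stratified epithelium, were listed at 0 throughout. Along the chromosome no gene of the table lies between MT2A and MT1E. Beyond MT1E, genes at or near 0 separate the expressed ones: MT1M, MT1A and MT1B lie between MT1E and MT1F, and MT1G and MT1H lie between MT1F and MT1X. The pseudogenes between them were not analysed here.

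**Figure D1:**
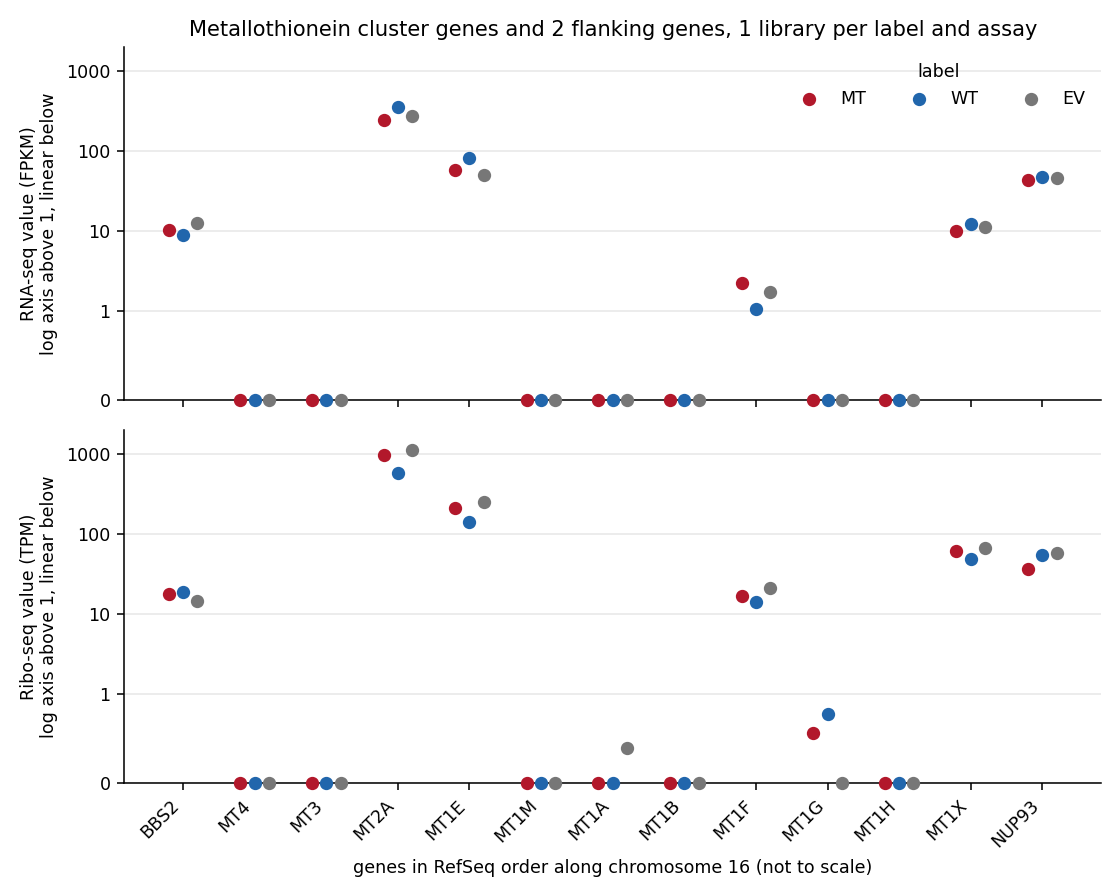
Values of the metallothionein genes and of BBS2 and NUP93 on either side, with RNA-seq in FPKM above and Ribo-seq in TPM below, 1 point per library. MT2A, MT1E, MT1X and MT1F stand above 1 in every library; in the lower panel the WT point of each lies under its MT and EV points, whereas in the upper panel the WT points of MT2A, MT1E and MT1X lie above theirs.

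The expressed genes kept one order of level in all 6 libraries, MT2A above MT1E above MT1X above MT1F, and the ranges of neighbours in that order did not overlap in either assay. MT2A encodes metallothionein-2, generally the most abundant human form. Its mRNA was 248 FPKM in MT and 356 FPKM in WT, against 279 FPKM in EV. It exceeded that of 98.79% of named genes in MT, 99.26% in WT and 98.97% in EV. MT2A made up 77.9% of the summed metallothionein mRNA value in MT, 78.6% in WT and 81.4% in EV. In Ribo-seq MT2A stood at 975 TPM in MT and 589.7 TPM in WT, against 1128 TPM in EV. WT was thus the highest library for MT2A mRNA and the lowest for MT2A footprints.

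MT1E, the most abundant MT1 gene here, stood at 57.9 FPKM in MT and 83.2 FPKM in WT, against 50.6 FPKM in EV. Its Ribo-seq value was 212 TPM in MT and 144 TPM in WT, against 256 TPM in EV. The WT library again had the most mRNA and the fewest footprints. MT1X had 10.1 FPKM in MT and 12.4 FPKM in WT, against 11.3 FPKM in EV. In Ribo-seq it had 61.9 TPM in MT and 48.8 TPM in WT, against 66.8 TPM in EV, which is the same order over smaller distances.

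MT1F was the exception in mRNA. Its RNA-seq value was low, 2.28 FPKM in MT and 1.06 FPKM in WT, against 1.76 FPKM in EV, so that WT was the lowest library. Its footprints followed the other genes, with 17.1 TPM in MT and 14.1 TPM in WT, against 21.3 TPM in EV. Summed over the 7 genes, metallothionein mRNA was 318 FPKM in MT and 452 FPKM in WT, against 343 FPKM in EV. The sum sets aside how reads were divided among these 7, but not reads given to other copies or left uncounted. The summed Ribo-seq value was 1267 TPM in MT and 797 TPM in WT, against 1473 TPM in EV. Metallothioneins thus took 0.127% of the Ribo-seq column in MT and 0.0797% in WT, against 0.147% in EV.

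Comparing MT with EV asks what differed with the PHYHD1 form that lacks the deleted segment. No metallothionein was called in either assay, of 4 that entered the comparison, while 0.29% of 11016 genes were called in RNA-seq and 2.83% of 10737 in Ribo-seq. In mRNA the genes were split, with log2 differences of 0.19 for MT1E and 0.25 for MT1F and of -0.15 for MT1X and -0.17 for MT2A. Their median was 0.02, against -0.01 over all genes tested. In Ribo-seq all 4 lay below 0, from -0.30 for MT1F to -0.11 for MT1X, with a median of -0.24, against 0.01 over all genes. Of all genes tested, 52.1% lay above 0 there. The summed value was 0.929 times that of EV in RNA-seq, but 1.10 times with MT2A left out, and 0.860 times in Ribo-seq. The ratio of footprints to mRNA, taken as the Ribo-seq minus the RNA-seq log2 difference, had no call among the 4 either, with 4% of 11422 genes called. MT2A (-0.04) and MT1X (0.04) were close to 0 on that scale, and MT1E stood at -0.46 and MT1F at -0.55.

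Comparing WT with EV asks the same of the library labelled PHYHD1-WT, and it shares its EV libraries with the comparison above. In mRNA 3 of the 4 genes stood above EV, led by MT1E at 1.64 times and MT2A at 1.28 times the EV value. Of all genes tested, 48.9% stood above EV. None of the 4 passed the 2-fold rule, which 0.499% of 11032 genes passed. The log2 differences were 0.71 for MT1E, 0.35 for MT2A, 0.13 for MT1X and -0.42 for MT1F, the gene with the least mRNA. Of the 5031 genes at 10 units or more in both EV libraries, 7 had an RNA-seq difference as high as that of MT1E, itself included, and 109 as high as that of MT2A.

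Footprints in WT stood below EV for all 4 genes, whereas 53.4% of all genes tested stood above EV. The Ribo-seq value was 0.523 times that of EV for MT2A, 0.560 times for MT1E, 0.660 times for MT1F and 0.730 times for MT1X. The log2 difference of MT2A, -0.93, came close to the 2-fold rule without passing it, and that of MT1E was -0.83. No member was called, with 3.36% of 10700 genes called and 1.62% called lower. Of the same 5031 genes, 11 had a Ribo-seq difference as low as that of MT2A and 24 as low as that of MT1E, each gene itself included. The median of the 4 was -0.70, against 0.03 over all genes tested. As copies may share reads, the 4 genes may not be separate observations, here or in the other comparisons. How far they share reads was not tested.

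**Figure D2:**
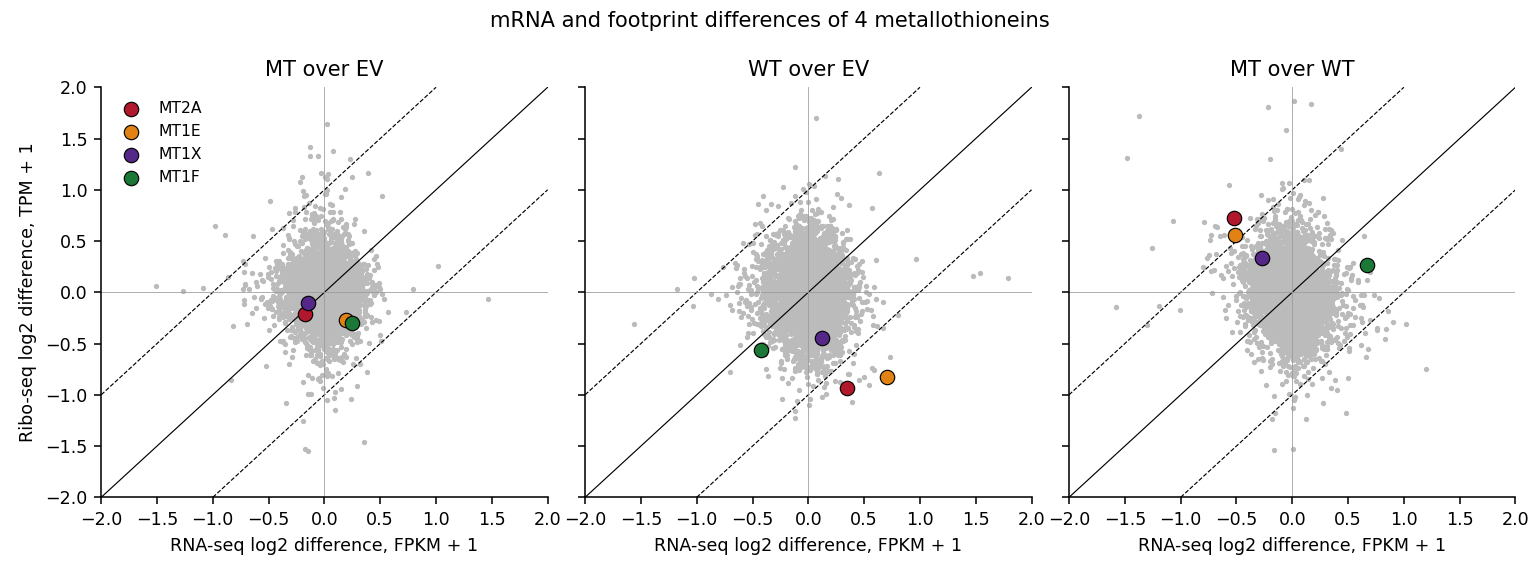
Ribo-seq against RNA-seq log2 differences (value plus 1) in the 3 comparisons, with genes at 10 units or more in both EV libraries in grey (points past 2 on either axis are not drawn), the 4 expressed metallothioneins in colour, equal differences as a solid line and 2-fold unequal ones as dashed lines. In WT over EV, MT2A (0.35 and -0.93) and MT1E (0.71 and -0.83) lie below the lower dashed line, and in MT over WT both lie above the upper one.

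With mRNA higher and footprints lower, the ratio of footprints to mRNA was called lower in WT than in EV for MT1E (log2 difference -1.54) and MT2A (-1.28). These were 2 of the 4 genes tested, and 4.76% of 11397 genes were called, 2.04% lower and 2.72% higher. Among the 5031 genes at 10 units, 2 had a difference as low as that of MT1E and 12 as low as that of MT2A, each gene itself included. MT1X stood at -0.57 and MT1F at -0.14, neither past the rule. For MT1F the ratio of the values themselves, without the added unit, was 1.10 times that of EV, so its direction depends on the added unit. The sum over the family stood at -1.29, and at -1.32 with MT2A left out. Without MT2A most of the sum is MT1E, at 50.6 FPKM in EV against 11.3 FPKM for MT1X. The second value therefore largely repeats that of MT1E. These calls need the labels to pair the same cells in both assays: when the Ribo-seq labels of WT and MT were swapped and those of RNA-seq kept, neither gene was called in WT over EV (MT1E -0.98, MT2A -0.56).

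Footprint to mRNA ratios within each library show where this places the genes. For MT2A the ratio of Ribo-seq TPM to RNA-seq FPKM was 3.93 in MT and 1.66 in WT, against 4.04 in EV. For MT1E it was 3.67 in MT and 1.73 in WT, against 5.07 in EV. Both genes thus had more than 3 times the ratio of the median gene in MT and EV (median ratios 1.11 and 1.10) and about 1.5 times in WT (median 1.13). In rank, MT2A stood at percentile 90.6 in MT and 66.3 in WT, against 91.7 in EV, among the 10049 to 10088 genes at 1 unit or more in both assays. MT1X had ratios of 6.14 in MT and 3.93 in WT, against 5.92 in EV, and stayed above percentile 91 in every library. The ratio of MT1F was 7.48 in MT and 13.3 in WT, against 12.1 in EV, and rests on mRNA values of 1 to 2 FPKM. Metallothionein coding sequences are short, and how a short coding sequence affects these ratios was not tested.

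**Figure D3:**
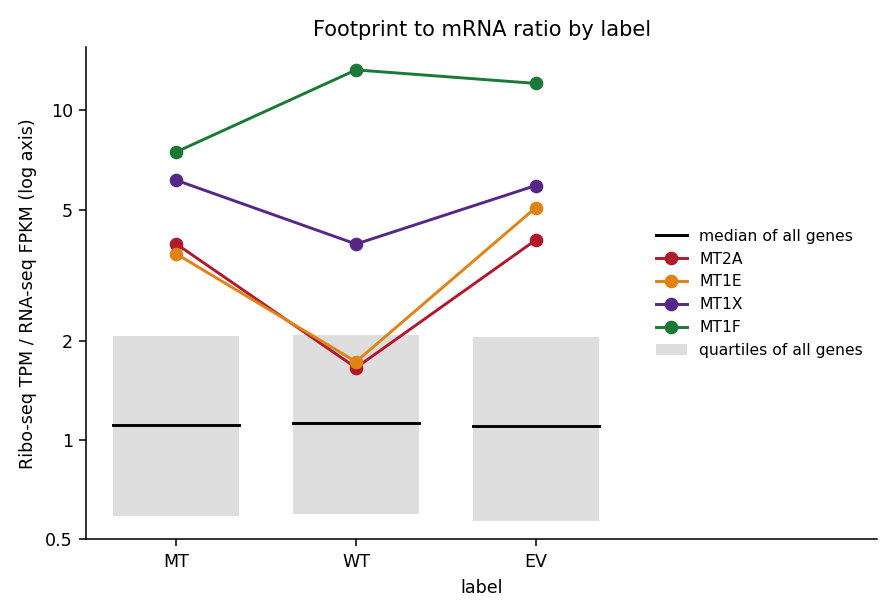
Ratio of Ribo-seq TPM to RNA-seq FPKM (log axis) for the 4 expressed metallothioneins under each label, over the median and quartiles of all genes at 1 unit or more in both assays. MT2A and MT1E lie inside the quartile range in WT (1.66 and 1.73) and above it in MT and EV, where they stand between 3.67 and 5.07.

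Setting MT against WT compares the deleted with the full form named in the title. MT2A and MT1E mRNA was lower in MT, at 0.696 times the WT value for both, and MT1X stood at 0.813 times. MT1F stood at 2.16 times the WT value, from 2.28 FPKM in MT and 1.06 FPKM in WT, which becomes 0.67 on the log2 scale with 1 added. No member was called, against 0.508% of 11013 genes. In Ribo-seq all 4 stood higher in MT, as 48.4% of all genes tested did. Their values were 1.65 times the WT value for MT2A, 1.48 times for MT1E, 1.27 times for MT1X and 1.22 times for MT1F. None of the 4 was called in Ribo-seq, with 3.19% of 10752 genes called. The ratio of footprints to mRNA was called higher in MT for MT2A (log2 difference 1.24) and MT1E (1.08), 2 of the 4 tested, with 5.51% of 11413 genes called and 2.96% called higher. MT1X stood at 0.61 and MT1F at -0.41. The WT libraries enter both comparisons with these calls.

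The zinc transporter genes are given beside the metallothioneins as the other arm of zinc handling. Of the 10 SLC30 zinc exporters 5 entered the comparisons, and of the 14 SLC39 importers 11 did. None of these 16 was called in RNA-seq, Ribo-seq or their ratio in any of the 3 comparisons, which at shares of 0.29% to 5.51% over all genes is near the background for so few genes. SLC30A1, the plasma membrane zinc exporter that MTF1 also induces, had 7.45 FPKM in MT and 7.80 FPKM in WT, against 4.99 FPKM in EV, with 8.38, 7.66 and 7.91 TPM in MT, WT and EV Ribo-seq. Its footprint to mRNA difference was -0.42 in MT over EV, -0.59 in WT over EV and 0.17 in MT over WT, and its footprints in WT were close to those in EV. SLC39A14, a zinc and manganese importer, stood at 30.3 FPKM and 50.7 TPM in WT, against 26.6 FPKM and 62.9 TPM in EV, the lowest footprint to mRNA difference of the importers (-0.49). SLC39A11 (0.82) and SLC39A10 (0.74) had the highest. The median footprint to mRNA difference in WT over EV was 0.17 for the exporters and -0.06 for the importers, against 0.04 over all genes and -0.93 over the 4 metallothioneins.

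Of 15 copper handling genes, STEAP2, a metalloreductase, was the one called, lower in MT than in WT in Ribo-seq (1.55 TPM in MT and 4.20 TPM in WT) and in its ratio to mRNA. At the shares of 3.19% and 5.51% over all genes, 1 call among 15 genes is near the background. SOD1, the copper and zinc superoxide dismutase, had footprints at a level near that of MT2A in EV, at 1231 TPM in MT and 1289 TPM in WT, against 1262 TPM in EV. ATOX1, a copper chaperone with a short coding sequence, stood at 297 TPM in MT and 249.8 TPM in WT, against 308 TPM in EV, and COX17, the mitochondrial copper chaperone, at 407 TPM in MT and 403 TPM in WT, against 401 TPM in EV. SOD1 and COX17 thus lay within a narrow range over the labels, and ATOX1 was lowest in WT. Its mRNA was lowest in WT too, at 17.3 FPKM in MT and 11.8 FPKM in WT, against 13.4 FPKM in EV. The footprint to mRNA difference of ATOX1 in WT over EV was -0.12, and the median of the copper list was 0.09, with 9 of 15 above 0. SCO1 (-0.59) and CCS (-0.44) were the lowest on that scale and ATP7A (0.72) the highest. SCO1 footprints were 37.0 TPM in WT, against 45.5 TPM in EV, and its mRNA 15.3 FPKM in WT, against 12.3 FPKM in EV.

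MTF1, the transcription factor through which zinc acts, had 5.17 FPKM in MT and 4.96 FPKM in WT, against 5.38 FPKM in EV, and 2.34, 2.36 and 2.52 TPM in MT, WT and EV. The glucocorticoid receptor gene NR3C1 stood at 36.5 FPKM in MT and 37.3 FPKM in WT, against 41.4 FPKM in EV. Of the 13 genes of metal-responsive and glucocorticoid-responsive transcription, TSC22D3 and PER1, both glucocorticoid targets, were called higher in the footprint to mRNA ratio of WT over EV (1.03 and 1.42), where 2.72% of all genes were. KLF9 (0.89) lay above 0 there without a call, whereas FKBP5 (-0.24) and DUSP1 (-0.18), which glucocorticoids also induce, lay below 0. Of the 13 genes, 10 lay above 0, as 53.7% of all genes did, with a median of 0.15, against 0.04 over all genes. PER1 mRNA was low, at 5.82 FPKM in MT and 1.66 FPKM in WT, against 3.72 FPKM in EV, and was called higher in MT than in WT, with its footprint to mRNA ratio called lower. Of the 13 genes of the heavy metal and oxidative stress response none was called in any comparison, again near the background for so few. HMOX1, heme oxygenase, had 14.8 FPKM in MT and 17.8 FPKM in WT, against 20.3 FPKM in EV. The median footprint to mRNA difference of that list in WT over EV was -0.27, against 0.04 over all genes. Of the 13, 4 lay above 0, as 53.7% of all genes did. HMOX1 (0.21) was among these 4, and SLC7A11 (0.42) was the highest. SLC30A1 (-0.59), which is on this list too, SRXN1 (-0.51) and HSPA1A (-0.50) were the lowest.

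**Figure D4:**
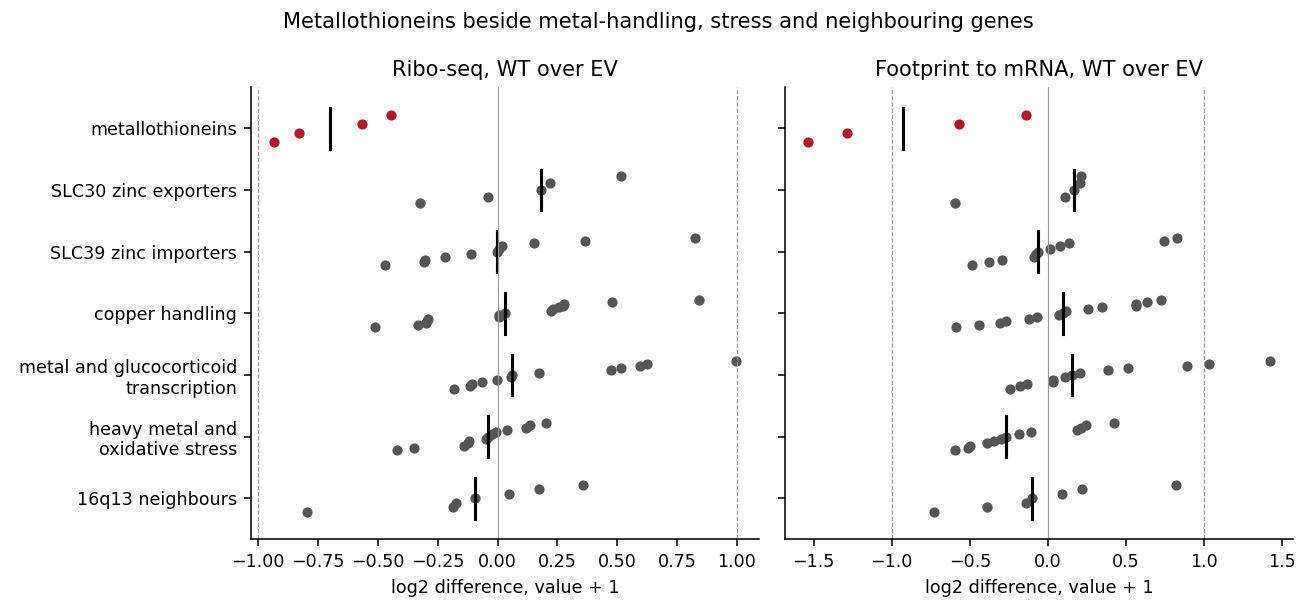
Log2 differences of WT over EV in Ribo-seq (left) and in the ratio of footprints to mRNA (right), 1 point per gene that entered the comparison, with list medians as black bars and the 2-fold rule as dashed lines. On the right the metallothionein median is -0.93 and the other list medians lie between -0.27 and 0.17.

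Of 11 genes around the cluster on chromosome 16, 7 entered the comparisons and none was called, which is near the background too. BBS2, a cilium gene that lies before the first metallothionein, had 10.3 FPKM in MT and 9.04 FPKM in WT, against 12.8 FPKM in EV, and its footprint to mRNA difference in WT over EV was 0.82. NUP93, a nuclear pore gene after MT1X, had 36.5 TPM in MT and 54.4 TPM in WT, against 58.2 TPM in EV, with an mRNA of 43.9, 48.2 and 46.6 FPKM in MT, WT and EV. Its footprints were lowest in MT, and not in WT as those of the metallothioneins were. Two-way patterns differed among the neighbours: NLRC5 (7.85 TPM in MT, 4.44 in WT and 8.45 in EV) and OGFOD1 (38.7, 34.6 and 39.5 TPM) had their lowest footprints in WT. Their footprint to mRNA differences in WT over EV were -0.73 and -0.39. Of the 7 neighbours, 3 lay above 0 on that scale, with a median of -0.10, against 0.04 over all genes.

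The genes whose values were most like the summed metallothionein value over the 6 libraries were INTS6, NAT9, PLAUR, SLC29A1 and THAP5. Likeness was the Euclidean distance of log2 values, centred within each assay, among 4722 genes at 10 units or more in every library. INTS6, a subunit of the Integrator complex, was nearest at a distance of 0.14, with 17.5 TPM in MT and 10.2 TPM in WT, against 18.3 TPM in EV. Its mRNA was 14.6 FPKM in MT and 19.3 FPKM in WT, against 14.8 FPKM in EV. PLAUR, the urokinase receptor, had 63.5 TPM in MT and 38.4 TPM in WT, against 66.4 TPM in EV, with mRNA at 11.1 FPKM in MT and 14.1 FPKM in WT, against 12.5 FPKM in EV. NAT9 lay at 0.197, PLAUR at 0.212, SLC29A1 at 0.238 and THAP5 at 0.256. Within the family MT2A lay at 0.06, as it makes up most of the sum. MT1E at 0.258 and MT1X at 0.385 were further from the sum than all 5 genes named above.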

How the data were processed

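One deposited table holds 20307 rows and a column for each of the 6 libraries, matched to samples by column name. The labels' protocols give TRIzol extraction, cycloheximide before lysis, RNase I footprinting and NEBNext library kits; no source used here names the aligner, the counting or the annotation, and hg18 is the build in the submitters' processing notes. The deposited RNA-seq columns carry no unit and were read as FPKM from their sums (459938 to 469859), though TPM over more genes is possible. The deposited Ribo-seq columns are TPM, as each sums to 1000000. The authors' values were used as deposited. Rows without a name (605) and 7 symbols on several rows were left out. Log2 differences used a pseudocount of 1, and a gene entered if either library compared reached 1 unit; for the footprint to mRNA ratio, in any of the 4 libraries. With 1 library per label no test was possible. The size rule was run on simulated data for RNA-seq in WT over EV only, with planted changes larger than the rule. Ribo-seq and the footprint to mRNA ratio were not checked in this way. Promoter windows are from RefSeq. Genes of short proteins, planned as a yardstick, were not analysed here. The genes and lists were chosen with earlier results of these data known. Genes named are the metallothioneins, further family members, PHYHD1, list genes past the rule and the 5 genes nearest in pattern. SOD1, the most abundant copper handling gene, is named too. For lists without a call, the plan to name the most abundant genes was not followed throughout. The cell type markers named (PAX8, VIM, PTPRC, CD68) and SLC30A1, SLC39A10, SLC39A11, SLC39A14, ATOX1, COX17, SCO1, CCS, ATP7A, MTF1, NR3C1, KLF9, FKBP5, DUSP1, HMOX1, SRXN1, HSPA1A, SLC7A11, BBS2, NUP93, NLRC5 and OGFOD1 were chosen after their values were seen. Python 3.11.15, pandas 2.3.3 and numpy 2.4.6 were used.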

Additional observations from a re-analysis of the deposited data

How the results depend on the processing

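No paired analysis was possible because each label has 1 library per assay. The footprint to mRNA calls for MT2A and MT1E held, in WT over EV and in MT over WT, with a pseudocount of 0.1 or 5. They also held after centring on the median gene and with RNA-seq rescaled to the Ribo-seq total, the latter chosen after seeing the data. Both settings shift genes at these levels by nearly one amount. The minimum (none or 10 units) decides only which genes enter. MT2A and MT1E were above 10 units in every library, so it could not change their calls. The calls rest on the Ribo-seq labels. With WT and MT exchanged there, called members numbered 0 in WT over EV, 0 in MT over WT and 1 in MT over EV, the summed difference was -0.62 in WT over EV, and in MT over WT it turned to -0.16, with MT1E at -0.0445 and MT2A at -0.20; the exchange itself makes these values. Left without MT2A, also chosen after seeing the data, the sum in MT over WT was 0.95, short of the rule. A 1.5-fold rule called 1 member in WT over EV mRNA (290 of all genes), 2 in WT over EV Ribo-seq (1299; sum -0.88), 1 in MT over WT mRNA (356), 1 in MT over WT Ribo-seq (1347; sum 0.67) and 3 in the MT over WT footprint to mRNA ratio (2145), with MT1X (0.61) as the third. Without MT2A the uncalled mRNA sum in MT over EV was 0.14, against -0.11 with it. A pseudocount of 0.1 called 1 member, MT1F, in MT over WT mRNA (1.04). Over all genes the calls moved with the settings: in the footprint to mRNA ratio from 83 to 2013 in WT over EV (543 as reported), 69 to 1663 in MT over EV (457) and 118 to 2145 in MT over WT (629), in Ribo-seq from 45 to 1299 (359), 41 to 1162 (304) and 60 to 1347 (343), and in RNA-seq from 10 to 290 (55), 5 to 255 (32) and 10 to 356 (56), in the same order. Read depth is unknown, so the precision of low values such as MT1F mRNA cannot be given.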
